A study of Homo sapiens with 6 samples.

Results

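The genes described here are 37 enzymes, transporters and regulators of glycolysis, the pentose phosphate pathway and the citrate cycle, measured in cells labelled HCT-116, an established human colorectal carcinoma line. They were chosen by name. A gene was read where a probe set (a group of array probes summarised as 1 value) named that gene alone, which left 35 of the 37 among 18132 genes on the array: 21 of glycolysis, 6 of the pentose phosphate pathway, and 8 of the citrate cycle and the pyruvate step that leads into it. FH was not analysed here, and SLC2A3 was named only together with its close copy SLC2A14. There were 6 Affymetrix arrays. The 3 AAPK arrays carried RNA of cells given the compound coded AAPK, by the series title a dual inhibitor of 2 mitotic kinases (Aurora A, PLK-1), whereas the 3 DMSO arrays carried RNA of cells given the vehicle. Both groups are labelled as high in both kinases, and 1 treatment note, repeated for every sample, reads 10 µM of drug for 48 h, which is taken as the AAPK dose. Whether the 3 samples of each group were grown as separate cultures is not stated, so p-values measure the spread between these samples only.

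Glycolysis splits glucose into pyruvate. Glucose enters through transporters of the SLC2A family, hexokinase and phosphofructokinase commit it, and lactate dehydrogenase turns pyruvate into lactate, which proliferating tumour cells release even when oxygen is present. The pentose phosphate pathway branches off after hexokinase and yields NADPH and the ribose of nucleotides. Pyruvate dehydrogenase, which is switched off by its kinases and on by its phosphatases, feeds the citrate cycle in the mitochondrion.

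The array medians ran from 6.46 to 6.47 log2 units for AAPK and from 6.48 to 6.50 for DMSO, and pairs of arrays correlated at 0.9976 to 0.9983 (Pearson, all probe sets) inside a group and at 0.9942 to 0.9954 across groups. HCT-116 is known as an epithelial line, but the epithelial markers were mixed. Keratin genes KRT8 and KRT18 averaged 12.01 and 12.52 on the AAPK arrays, against 11.84 and 12.44 on the DMSO arrays, whereas 6 of 9 epithelial markers lay in the lowest 25% of genes by signal. Among these, EPCAM averaged 3.39 on the AAPK arrays and 3.45 on the DMSO arrays, and CDH1, encoding E-cadherin, 5.11 in both. VIM, the mesenchymal filament gene vimentin, chosen after its value was seen, averaged 12.54 in AAPK and 12.51 in DMSO. These low EPCAM and CDH1 signals go against the label, which is used here only as the submitters' name for the cells. Past limma's adjusted threshold 1 of the 9 epithelial markers rose and none fell, a share of 11.1%, against 15.4% of all genes. No marker of blood cells (of 6), endothelium (of 4) or fibroblasts (of 6) passed it, and before adjustment p was below 0.05 for 0, 1 and 0 of these. In bulk RNA, fewer cells of a type and less RNA per cell cannot be told apart.

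After AAPK, transcripts of the glucose transporter GLUT1 (SLC2A1) and of lactate dehydrogenase A (LDHA) were modestly higher, and most enzymes of the 3 pathways did not pass the test. These 2 are named first because they alone among the members passed under all 16 alternative settings. Of the 35 measured members, 7 rose and 2 fell at an adjusted p of 0.05 (limma, Benjamini-Hochberg adjustment over all 18132 genes), which is 25.7% of them. Over all genes 15.4% were called, 8.11% higher and 7.26% lower. The members are bright genes: 33 of 35 had a mean signal above the median gene, and among all genes above that median 24.8% were called. The members' share is thus near that of bright genes in general, and is not a result about these genes. Without DMSO replicate 1, 5 members passed, and without AAPK replicate 1, 4 rose and 2 fell. The changes were small, from -0.22 to 0.37 on the log2 scale, or 1.17-fold lower to 1.29-fold higher. The members that rose were SLC2A1, HK2, PFKP, PGAM1, LDHA, TALDO1 and MDH1, and those that fell were PFKFB2 and ALDOC.

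**Figure D1:**
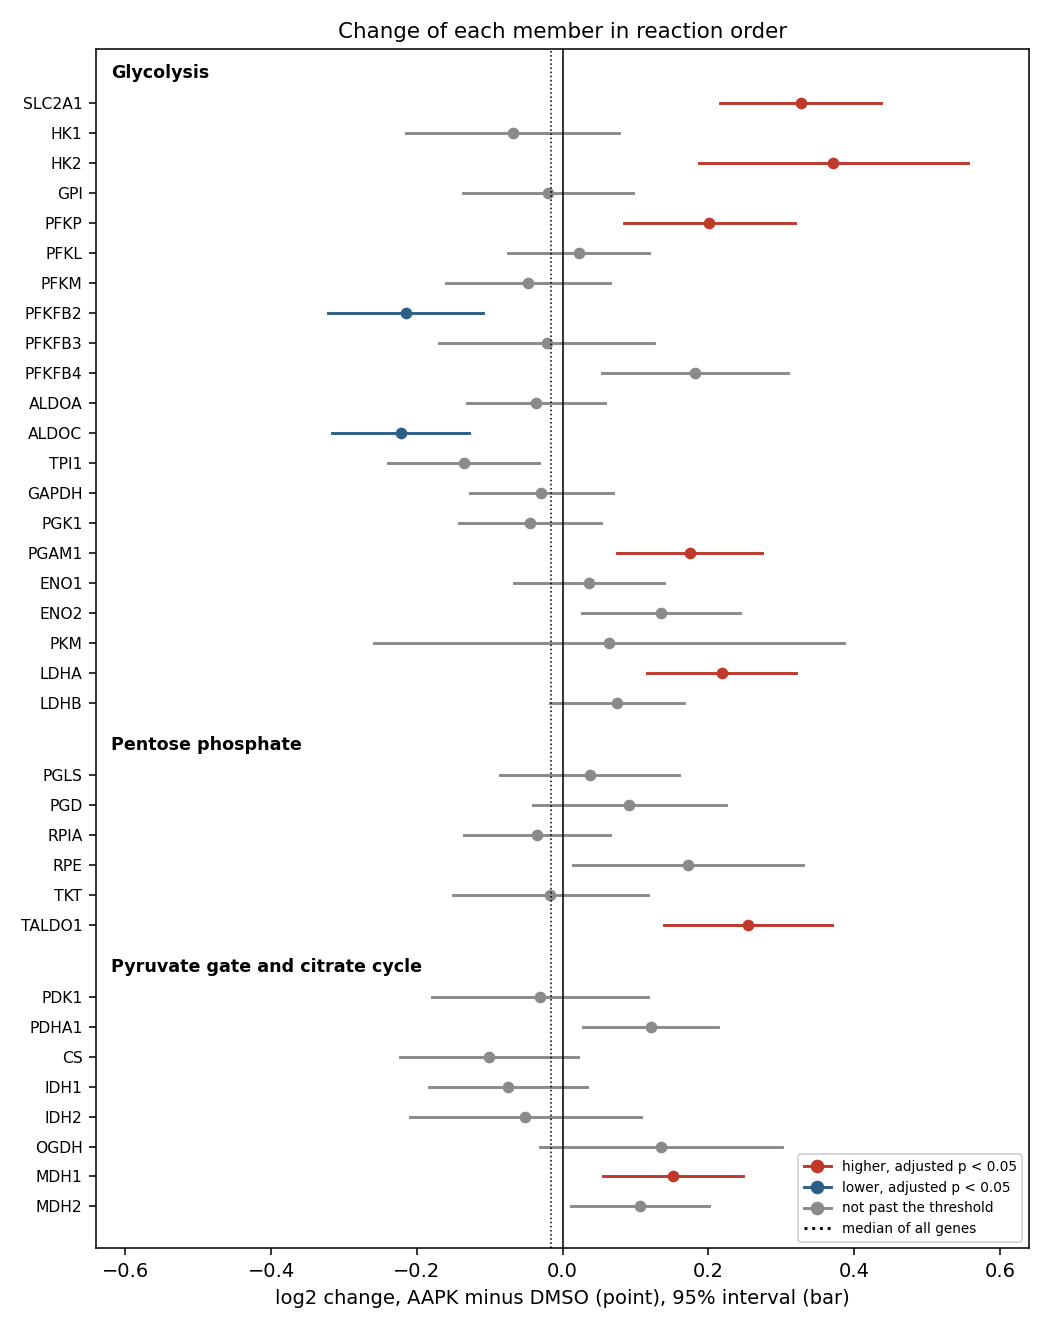
Log2 change (AAPK minus DMSO) of the 35 measured members in the order of the reactions, with the moderated 95% interval from limma, 3 arrays per group; the dotted line is the median of all genes. The 7 red points rose, the 2 blue points fell, and 26 grey points, from -0.14 to 0.18, did not pass.

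Read pathway by pathway, glycolysis, with 21 of the 35 members, held 7 of the 9 calls: 5 rose and 2 fell. In the pentose phosphate pathway 1 of 6 rose, and in the pyruvate and citrate cycle group 1 of 8 rose, and none fell in either. The shares called were 33.3%, 16.7% and 12.5%, against 15.4% of all genes and 24.8% of genes above the median signal. Nothing particular to a pathway is read from these shares. The median log2 changes were 0.02, 0.06 and 0.04, where the median of all genes was -0.02. Over the 3 AAPK arrays, each set against the DMSO mean, these medians had standard deviations of 0.03, 0.09 and 0.04. Those deviations leave out the spread of the DMSO arrays, so they do not show whether a median is apart from 0. With quantile normalisation the citrate cycle median was -4.87e-05. Whether the 3 pathways differ was not tested. In all, 17 of the 35 members (48.6%) had AAPK and DMSO arrays that did not overlap, against 31.9% of all genes and 45.8% of genes above the median signal.

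Glucose enters by facilitated transport. SLC2A1, which encodes the glucose transporter GLUT1, read 8.59, 8.66 and 8.74 on the AAPK arrays, against 8.36, 8.32 and 8.32 on the DMSO arrays. Every AAPK array was above every DMSO array, and the gene was 1.25-fold higher (0.33 ± 0.05 on the log2 scale, SE, 3 arrays a group, limma adjusted p = 0.00154). Of its other 3 probe sets, 2 rose by 0.37 and 0.47, and the dimmest was at -0.09 and did not pass. The 5 probe sets that name both SLC2A3, encoding GLUT3, and SLC2A14 had changes between 0.01 and 0.15, none past the threshold.

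The hexokinases, which trap glucose as glucose 6-phosphate, are read here as HK2 and HK1. HK2, the inducible form that tumours often use, read 8.22, 8.19 and 8.35 with AAPK and 7.69, 7.92 and 8.04 with DMSO. The groups did not overlap, although the DMSO arrays were spread widely, and the change was 0.37 ± 0.08 (limma adjusted p = 0.0126). The other HK2 probe set was at -0.07, the mean of both was 0.15 (adjusted p = 0.0619), and without AAPK replicate 3 the change was 0.32 (adjusted p = 0.0511). HK1, the widely expressed form, read 6.94, 6.87 and 7.08 with AAPK and 7.05, 7.11 and 6.94 with DMSO. Its arrays overlapped, and the interval of its change ran from -0.21 to 0.08. GPI, which makes fructose 6-phosphate, had an interval from -0.14 to 0.10.

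Phosphofructokinase, the committing step, has 3 subunit genes, and 1 of them rose. PFKP, the platelet form, read 9.32, 9.44 and 9.29 with AAPK, against 9.10, 9.17 and 9.17 with DMSO, with no overlap (log2 change 0.20 ± 0.05, limma adjusted p = 0.0268). That call was lost with quantile normalisation, where the change was 0.15 (adjusted p = 0.0734), and without any 1 of AAPK replicate 1, AAPK replicate 2 and DMSO replicate 1 (changes of 0.22, 0.16 and 0.18). PFKL, the liver form, read 8.32, 8.37 and 8.31 with AAPK and 8.28, 8.31 and 8.34 with DMSO. PFKM, the muscle form, read 9.10, 9.22 and 9.10 with AAPK and 9.23, 9.15 and 9.19 with DMSO. Both overlapped between the groups, and their intervals reached no further than -0.16 and 0.12.

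The PFKFB genes encode enzymes that make and break fructose 2,6-bisphosphate, the activator of phosphofructokinase. PFKFB2 read 8.16, 8.23 and 8.12 with AAPK and 8.40, 8.35 and 8.41 with DMSO. It fell by 0.22 on the log2 scale (SE 0.05, limma adjusted p = 0.0121), and without DMSO replicate 1 the change was -0.21 (adjusted p = 0.0505). Its 6 probe sets disagreed: 1 other fell by 0.15, and the remaining 4 lay between -0.10 and 0.16. The mean of all 6 was -0.02 (adjusted p = 0.753), so the fall was seen on 2 of its 6 probe sets. PFKFB4 read 7.40, 7.34 and 7.53 with AAPK and 7.21, 7.30 and 7.21 with DMSO. Its groups did not overlap but it missed the threshold (0.18 ± 0.06, adjusted p = 0.0610), passing it in 6 of 16 alternative settings; its other 3 probe sets lay between -0.11 and 0.02. PFKFB3, the form with the strongest kinase activity, read 7.80, 7.73 and 7.96 with AAPK and 7.84, 7.94 and 7.77 with DMSO and overlapped. Its brightest set was at -0.02, and its other 3 probe sets lay between -0.06 and 0.23, none past the threshold.

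**Figure D2:**
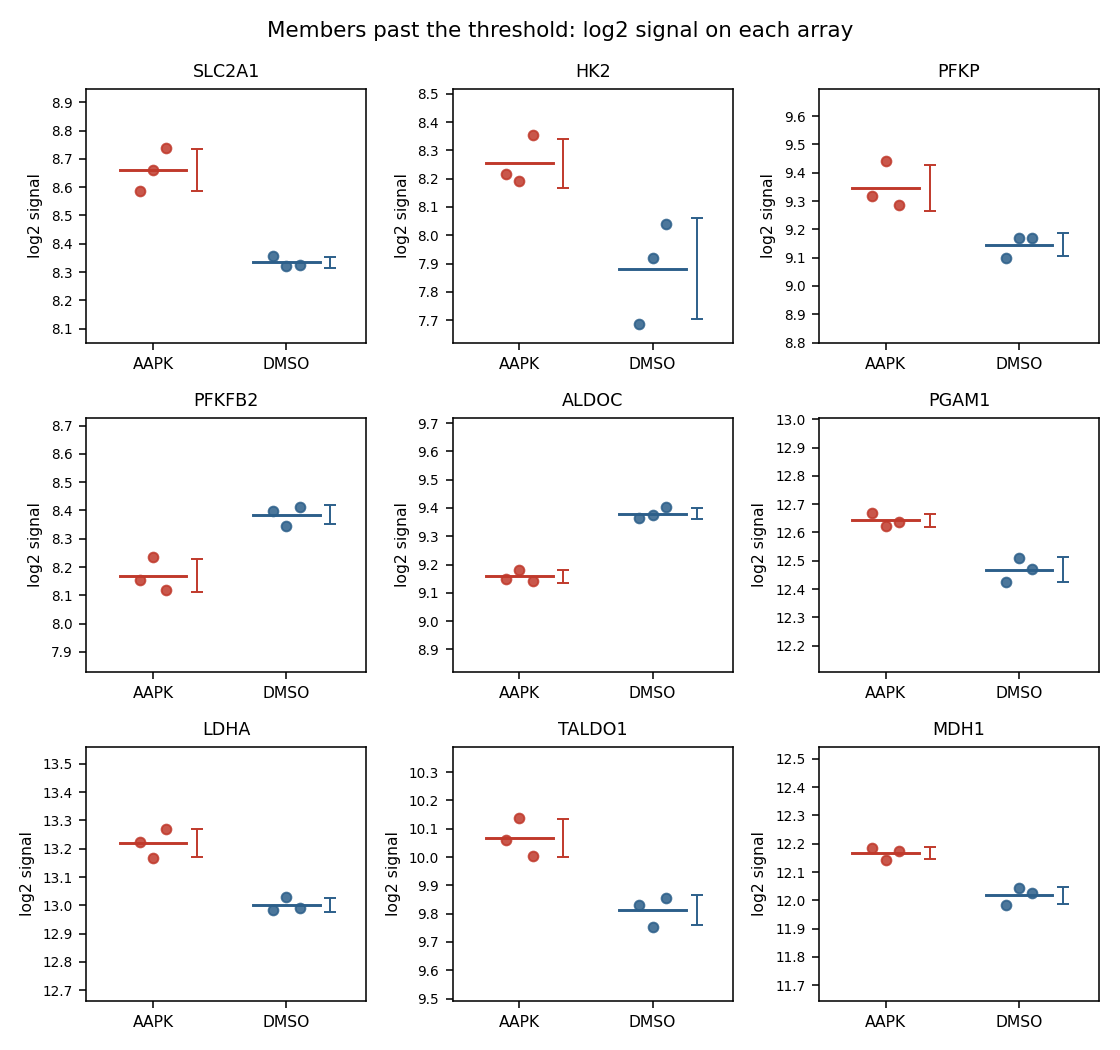
Log2 signal on each array for the 9 members past the threshold, AAPK left of DMSO, with the mean (line) and SD (bar), n = 3; every panel covers the same width in log2 units. In none of the 9 genes do the groups overlap, and HK2 has the widest spread among its DMSO arrays.

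In the middle of the pathway several signals were very bright. ALDOA, the main aldolase of most tissues, read 12.49, 12.52 and 12.46 with AAPK and 12.52, 12.54 and 12.52 with DMSO, a change of -0.04 with an interval from -0.13 to 0.06. ALDOC, the brain-type aldolase, read 9.15, 9.18 and 9.14 with AAPK and 9.36, 9.37 and 9.40 with DMSO. It was 1.17-fold lower with no overlap (log2 change -0.22 ± 0.04, limma adjusted p = 0.00549), and all 4 other probe sets were below 0, from -0.28 to -0.09, none of them past the threshold in the fit of all probe sets.

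TPI1, triose phosphate isomerase, read 12.06, 12.09 and 11.98 with AAPK and 12.18, 12.20 and 12.16 with DMSO. The groups were apart, yet the change of -0.14 did not pass (adjusted p = 0.0808), while it did with quantile normalisation (-0.16, adjusted p = 0.0331). Of its other 2 probe sets, 1 fell by 0.18 in the fit of all probe sets (adjusted p = 0.0319) and the other was at -0.08. GAPDH, the dehydrogenase often used as a loading control, read 13.66, 13.66 and 13.60 with AAPK and 13.67, 13.69 and 13.64 with DMSO, with an interval from -0.13 to 0.07. The array's own control probe sets for the 3′, middle and 5′ parts of GAPDH had changes of -0.05, -0.02 and -0.04. PGK1, phosphoglycerate kinase, was at -0.04, with its 8 other probe sets between -0.10 and 0.03. The 95% intervals of ALDOA, GAPDH and PGK1 reached no lower than -0.14 and no higher than 0.07.

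PGAM1, the phosphoglycerate mutase of most tissues, rose. It read 12.67, 12.62 and 12.64 with AAPK, against 12.42, 12.51 and 12.47 with DMSO (log2 change 0.17 ± 0.04, limma adjusted p = 0.0247). All 4 of its probe sets rose, the other 3 by 0.23 to 0.28. The brightest set alone lost its call without any 1 array other than DMSO replicate 2, with changes from 0.15 to 0.18. All 4 sets carry the x_at suffix by which Affymetrix marks probes that may match further sequences. The same suffix marked the brightest set of 11 of the 35 members. ENO1, the common enolase, was at 0.04 with an interval from -0.07 to 0.14. ENO2, the neuronal form, did not overlap between the groups but missed the threshold (0.14 ± 0.05, adjusted p = 0.0975).

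PKM, pyruvate kinase, had 1 array that stood apart. It read 9.65, 9.71 and 9.05 with AAPK and 9.28, 9.52 and 9.42 with DMSO, so AAPK replicate 3 was the lowest of all 6 arrays. The change was 0.06 ± 0.15 over all arrays and 0.27 without AAPK replicate 3 (adjusted p = 0.0374). All 5 other PKM probe sets were above 0, up to 0.16, and none passed; the probe sets named here do not tell the splice forms of the gene apart.

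At the last step the gene of the lactate-forming subunit rose. LDHA read 13.22, 13.17 and 13.27 with AAPK and 12.99, 13.03 and 12.99 with DMSO, 1.16-fold higher with no overlap (log2 change 0.22 ± 0.05, limma adjusted p = 0.00911). All 4 LDHA probe sets rose, by 0.19 to 0.24. The 3 sets other than the brightest carry the x_at suffix described for PGAM1, so they may match further sequences. The brightest set carries the suffix s_at instead. LDHB, whose subunit favours the return of lactate to pyruvate, read 12.51, 12.50 and 12.51 with AAPK and 12.44, 12.44 and 12.42 with DMSO. Its arrays did not overlap either, at a smaller distance of 0.07 ± 0.04 (adjusted p = 0.291). SLC2A1 and LDHA were the 2 members that passed under all 16 alternative settings.

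**Figure D3:**
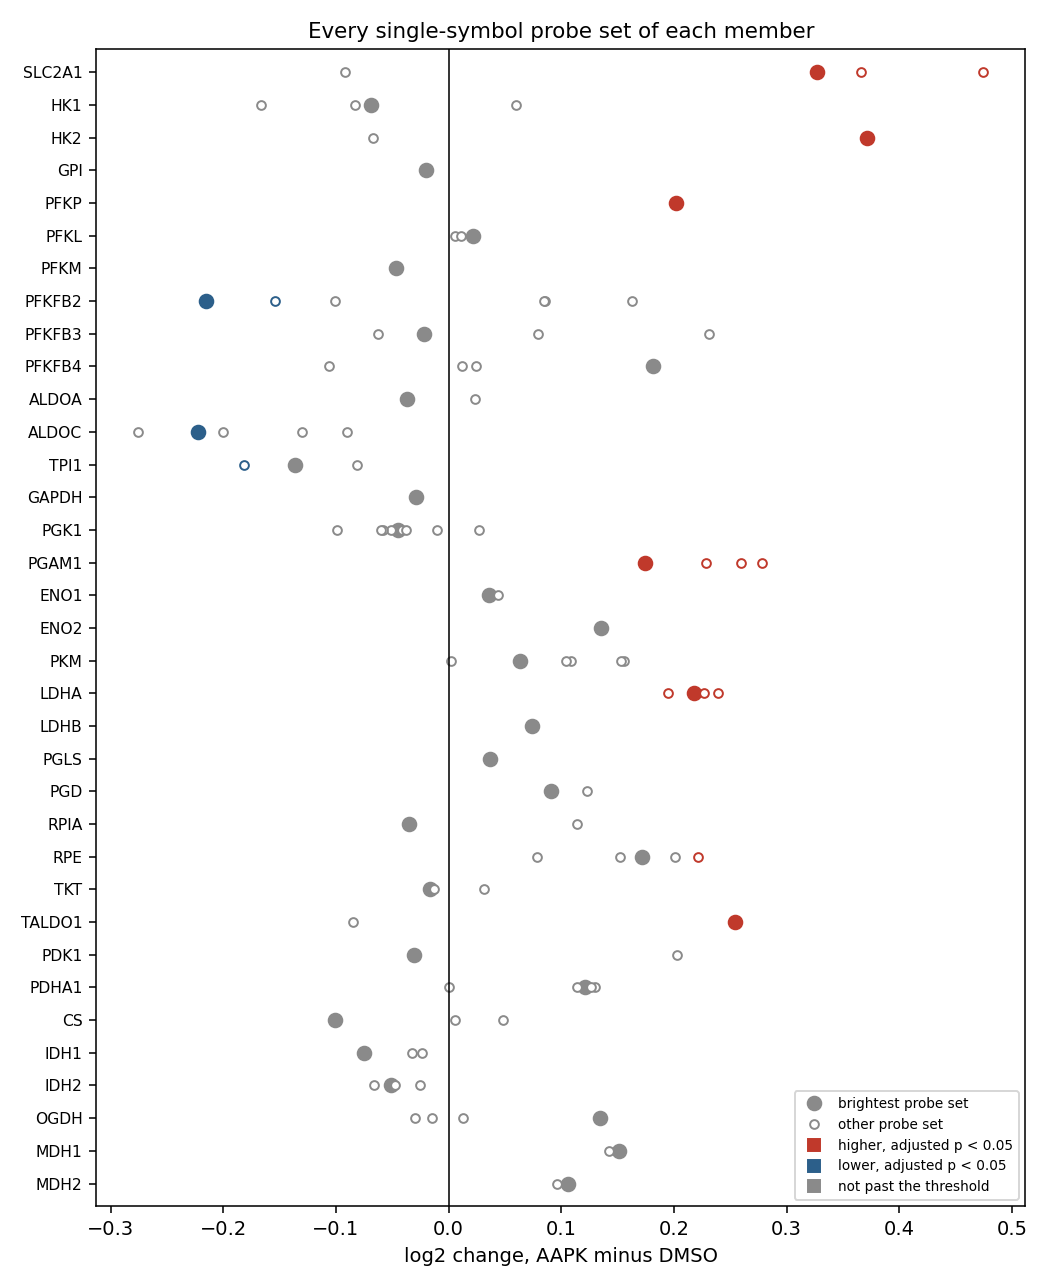
Log2 change (AAPK minus DMSO) of each of the 108 probe sets that name a single member, filled for the brightest set of the gene and open for the others, coloured by the limma fit over all 44988 such sets. LDHA and PGAM1 have all 4 sets in red, SLC2A1 has 3 of 4, and HK2 and TALDO1 each have 1 red set and 1 grey set on the other side of 0; MDH1 is grey because neither set passed in this fit.

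Over the 108 probe sets of the members, 15 rose and 4 fell in the fit of all probe sets, in which 12.9% were called. There were 7 members with a single probe set, PFKP among them. Of the 7 members with several sets whose brightest set was called in this fit, which leaves out MDH1, 4 had a further set called in the same direction: SLC2A1, PFKFB2, PGAM1 and LDHA.

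The promoters of the members can be set beside these values, since several glycolytic genes are classic targets of the hypoxia factor HIF-1 and of E-box factors such as MYC. The short words searched on both strands were ACGTG and GCGTG, the cores of the hypoxia response element, and CACGTG, an E-box that contains ACGTG. RefSeq promoter windows (GRCh38.p14, 250 bases before to 50 after a start site) were found for 34 of the 37 members. ACGTG stood in a window of 15 of these 34 genes (44.1%), against 24.9% of all 27305 genes with a window; GCGTG in 20 (58.8%), against 40.6%; and CACGTG in 6 (17.6%), against 8.77%. Genes with several windows have more chances of a match. Counted by window, ACGTG stood in 32.8% of the 58 member windows, against 21.4% of all 35116 windows. GCGTG stood in 41.4%, against 36.5%, and CACGTG in 10.3%, against 7.26%. Among the 7 members that rose, all with a window, ACGTG was found for HK2, PFKP and LDHA, and among the other 27 it was found for 12. GCGTG was found for SLC2A1, HK2, PFKP and LDHA, and for 16 of the other 27. CACGTG was found for HK2 and LDHA, and for 4 of the other 27. These 27 include FH, whose signal was not analysed, and lack PFKFB2, which fell but had no window. These are matches of letters, not sites at which a factor was seen to bind.

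Printed here are the 250 bases before the outermost start site of 3 members that rose and, for LDHA, of the isozyme that did not pass, 5′ to 3′ on the gene's strand, with matches in capitals. LDHA holds 3 matches, of which 2 are the full E-box, and HK2 holds 3, whereas LDHB and SLC2A1 hold none in these bases. The GCGTG of SLC2A1 and the CACGTG of HK2 counted above lie elsewhere in their windows. The positions are chr11:18394313-18394562 (plus strand) for LDHA, chr12:21657843-21658092 (minus strand) for LDHB, chr2:74833877-74834126 (plus strand) for HK2 and chr1:42958869-42959118 (minus strand) for SLC2A1.
LDHA: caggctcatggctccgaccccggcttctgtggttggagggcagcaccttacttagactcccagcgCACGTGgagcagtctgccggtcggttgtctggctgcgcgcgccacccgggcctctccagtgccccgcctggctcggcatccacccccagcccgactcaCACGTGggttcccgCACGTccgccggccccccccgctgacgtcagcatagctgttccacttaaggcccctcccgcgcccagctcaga
LDHB: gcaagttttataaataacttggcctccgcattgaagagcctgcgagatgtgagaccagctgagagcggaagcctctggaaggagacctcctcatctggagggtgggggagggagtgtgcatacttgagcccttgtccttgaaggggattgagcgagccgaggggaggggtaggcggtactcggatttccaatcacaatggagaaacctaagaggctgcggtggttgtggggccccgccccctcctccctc
HK2: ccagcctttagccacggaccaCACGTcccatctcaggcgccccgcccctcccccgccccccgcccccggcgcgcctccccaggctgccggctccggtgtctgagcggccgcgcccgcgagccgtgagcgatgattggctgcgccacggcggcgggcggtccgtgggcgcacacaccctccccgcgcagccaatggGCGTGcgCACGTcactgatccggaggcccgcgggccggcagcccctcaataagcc
SLC2A1: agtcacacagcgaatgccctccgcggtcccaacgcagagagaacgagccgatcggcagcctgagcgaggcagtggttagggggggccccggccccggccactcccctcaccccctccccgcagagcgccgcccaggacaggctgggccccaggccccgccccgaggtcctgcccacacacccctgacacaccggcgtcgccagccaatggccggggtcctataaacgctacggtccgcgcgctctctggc

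Isozyme genes of the same step were compared within each array, as the difference of their log2 signals, in 11 pairs. With 3 arrays against 3 the two-sided exact permutation test cannot go below p = 0.1, and 6 of the 11 pairs reached that limit (adjusted p = 0.183 over the 11 pairs). Pairs of other genes were not compared, so no background share stands beside this count. All of these 6 but PFKFB3 with PFKFB4 hold a member already called above, so their separation is not independent of those calls. LDHA minus LDHB was 0.71, 0.67 and 0.75 with AAPK and 0.54, 0.59 and 0.56 with DMSO, so LDHA moved by 0.14 more than LDHB (95% interval 0.06 to 0.22). HK1 minus HK2 shifted by -0.44 (interval -0.82 to -0.06), or -0.22 when the probe sets of a gene were averaged. PFKP shifted by 0.18 against PFKL and by 0.25 against PFKM, with intervals of 0.09 to 0.27 and 0.12 to 0.38. ALDOA gained 0.19 on ALDOC (0.14 to 0.23). PFKFB3 minus PFKFB4 shifted by -0.20 on the brightest sets and by 0.03 with the mean of the probe sets, so its direction rests on the probe sets used. The remaining 5 pairs overlapped, and their intervals included 0: PFKL with PFKM, PFKFB3 with PFKFB2, ENO1 with ENO2, IDH1 with IDH2, and MDH1 with MDH2. A difference of signals on an array shows unequal change, not which transcript is more abundant.

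**Figure D4:**
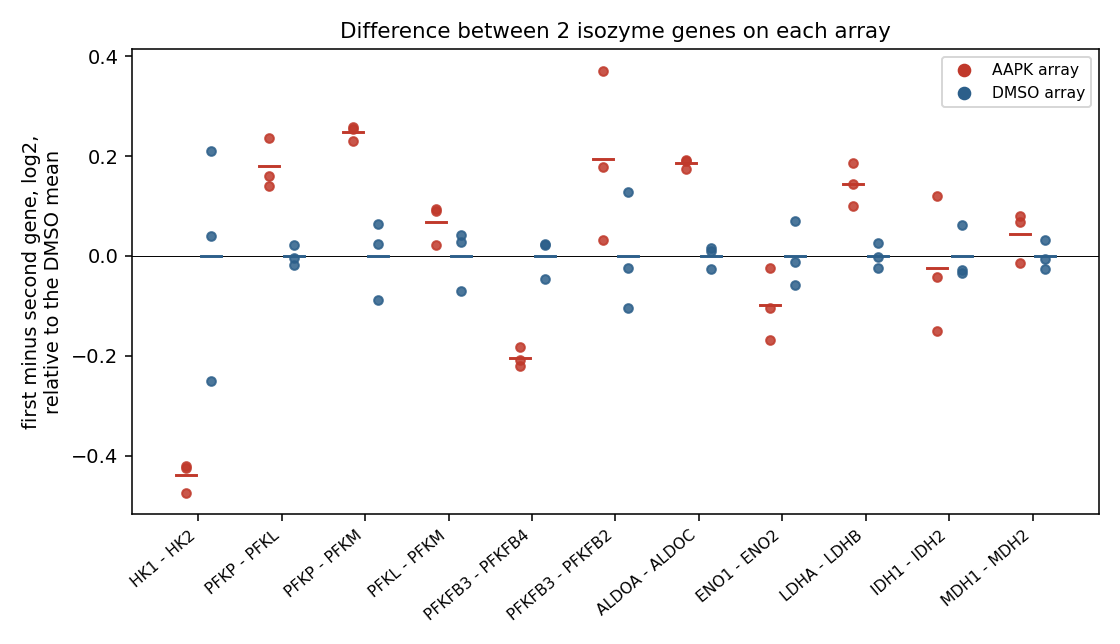
Difference between the log2 signals of 2 isozyme genes on each array, first minus second, with the DMSO mean of each pair set to 0; AAPK arrays stand left of DMSO arrays and short lines are means, n = 3. In 6 of the 11 pairs the groups do not overlap, from HK1 with HK2 at -0.44 to PFKP with PFKM at 0.25. Pairs of other genes were not compared, so this count has no background share.

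In the pentose phosphate pathway 1 enzyme rose. TALDO1, transaldolase, which returns carbon from the pathway to glycolysis, read 10.06, 10.14 and 10.00 with AAPK and 9.83, 9.75 and 9.86 with DMSO. It was 1.19-fold higher with no overlap (log2 change 0.25 ± 0.05, limma adjusted p = 0.00758). Its other probe set was dim, at 4.97, 4.83 and 4.94 with AAPK and 5.03, 5.11 and 4.86 with DMSO, and had a change of -0.08, so the mean of both was 0.08 (adjusted p = 0.181). The oxidative branch, which makes NADPH, did not pass: PGLS, the lactonase, was at 0.04 and PGD, phosphogluconate dehydrogenase, at 0.09 (adjusted p = 0.739 and 0.377). The pentose isomerase RPIA was at -0.04 and transketolase, TKT, at -0.02, with intervals of -0.14 to 0.06 and -0.15 to 0.12. RPE, the pentose epimerase, read 7.14, 7.29 and 7.08 with AAPK and 7.09, 6.87 and 7.04 with DMSO. Its groups overlapped and it did not pass (0.17 ± 0.07, adjusted p = 0.147), although all 5 probe sets were above 0 and 1 rose by 0.22.

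At the pyruvate gate neither member passed. PDHA1, the catalytic subunit of pyruvate dehydrogenase, read 11.07, 11.10 and 11.08 with AAPK and 10.96, 10.94 and 10.97 with DMSO. The groups were apart by a small margin, and the change of 0.12 ± 0.04 missed the threshold (adjusted p = 0.0841). PDK1, a kinase that switches the enzyme off and a classic hypoxia target, was at -0.03 with an interval from -0.18 to 0.12, and its dimmer probe set was at 0.20.

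Among the members of the citrate cycle group MDH1 passed. MDH1, the cytosolic malate dehydrogenase of the malate shuttle, read 12.19, 12.14 and 12.18 with AAPK and 11.98, 12.04 and 12.03 with DMSO (log2 change 0.15 ± 0.04, limma adjusted p = 0.0397). No AAPK array reached down to a DMSO array, but the call was lost without any 1 of the 6 arrays (changes of 0.13 to 0.16), with quantile normalisation (adjusted p = 0.0725) and in the fit of all probe sets (adjusted p = 0.0587). MDH2, the mitochondrial form, read 10.70, 10.74 and 10.68 with AAPK and 10.60, 10.59 and 10.62 with DMSO, and its change of 0.11 did not pass (adjusted p = 0.138). Citrate synthase, CS, was at -0.10, IDH1 and IDH2, the NADP-dependent isocitrate dehydrogenases, at -0.07 and -0.05, and OGDH, of the oxoglutarate dehydrogenase complex, at 0.13. The intervals of these 4 included 0, and their outermost bounds were -0.224 for CS and 0.301 for OGDH.

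Of the 26 members that did not pass, 22 had a 95% interval that lay wholly within 0.3 log2 units of 0.

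The rest of the 3 pathways was read from lists of genes that are not members. Of 78 such genes measured, 10 rose and 8 fell, where 15.4% of all genes and 24.8% of genes above the median signal were called. Without AAPK replicate 1 or DMSO replicate 1, 10 of them passed, and without AAPK replicate 2, DMSO replicate 2 or DMSO replicate 3, 11 passed. Among 30 other glycolysis genes 2 rose and 2 fell, a share of 13.3% that is near the background of 15.4%. ENO3, the muscle enolase, rose by 0.45 (limma adjusted p = 7.84e-04) and PGM1, phosphoglucomutase, which links glycogen to glycolysis, by 0.34 (adjusted p = 5.25e-04). TIGAR, a phosphatase that lowers fructose 2,6-bisphosphate, fell by 0.27 (adjusted p = 0.0164), and the transporter gene SLC2A10 fell by 0.18 (adjusted p = 0.0477). The TIGAR call was lost when its probe sets were averaged and without AAPK replicate 1, DMSO replicate 1 or DMSO replicate 3, with changes of -0.21, -0.25 and -0.23. SLC2A10 passed in 3 of 15 alternative settings.

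In the pentose phosphate list 1 of 9 rose and 1 fell, a share of 22.2%, against 15.4% of all genes and 24.8% of genes above the median signal. PRPS1, which turns ribose 5-phosphate into the nucleotide precursor PRPP, rose by 0.21 (adjusted p = 0.00616), and SHPK, sedoheptulokinase, fell by 0.22 (adjusted p = 0.0230). SHPK passed without 2 of the 6 arrays in turn, DMSO replicate 3 and AAPK replicate 3.

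Around the pyruvate gate and citrate cycle 7 of 39 other genes rose and 5 fell, which is 30.8%, against 15.4% of all genes and 24.8% of genes above the median signal, where 34 of the 39 lie. Nothing particular to the list is read from this share. MPC1, a subunit of the mitochondrial pyruvate carrier, read 6.69, 6.76 and 6.81 with AAPK and 6.31, 6.42 and 6.52 with DMSO, a rise of 0.34 (adjusted p = 0.00347). IDH3A, a subunit of the NAD-dependent isocitrate dehydrogenase, rose by 0.28 and PDK3, another kinase of pyruvate dehydrogenase, by 0.24; the PDK3 call was lost without DMSO replicate 1 (adjusted p = 0.0509). PCK2, mitochondrial PEP carboxykinase, was 1.56-fold lower, at 7.90, 8.10 and 7.96 with AAPK and 8.62, 8.61 and 8.65 with DMSO (log2 change -0.64 ± 0.06, limma adjusted p = 5.33e-05). PDP1, the phosphatase that switches pyruvate dehydrogenase on, was 1.52-fold lower, at 5.80, 5.94 and 5.91 with AAPK and 6.44, 6.49 and 6.53 with DMSO (adjusted p = 4.09e-05). Both changes were larger than that of any member. SUCLG2, a succinyl-CoA ligase subunit, fell by 0.20 (adjusted p = 0.0277), a call lost without AAPK replicate 1, AAPK replicate 2, DMSO replicate 2 or DMSO replicate 3.

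**Figure D5:**
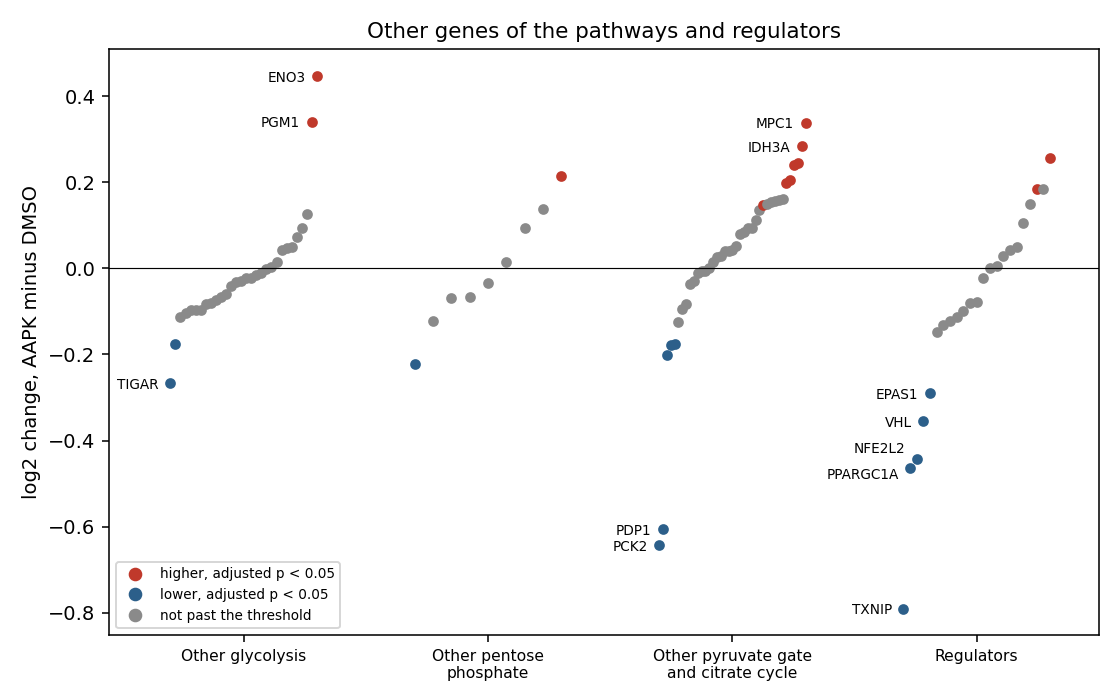
Log2 change (AAPK minus DMSO) of genes on the 3 pathway lists that are not members and of regulators, ordered by size within each list; red and blue points passed the threshold. PDP1 and PCK2 lie near -0.6 and TXNIP at -0.79, below every member.

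Among 23 regulators of glucose metabolism 2 rose and 5 fell, which is 30.4%, beside the same 15.4% of all genes and 24.8% of genes above the median signal, where 18 of the 23 lie. TXNIP, an arrestin-like protein that is induced by glucose and removes GLUT1 from the cell surface, was 1.73-fold lower. It read 10.00, 10.03 and 10.01 with AAPK and 10.79, 10.80 and 10.81 with DMSO; the arrays of each group lay close together (log2 change -0.79 ± 0.04, limma adjusted p = 1.83e-06). PPARGC1A, a coactivator of mitochondrial genes, fell by 0.46 and NFE2L2, the antioxidant factor NRF2, by 0.44 (adjusted p = 8.78e-05 and 4.01e-04). The genes that rose were MTOR, by 0.26, and AKT1, by 0.18, kinases of growth signalling (adjusted p = 0.0397 and 0.0488). MTOR passed without 2 of the 6 arrays in turn, AAPK replicate 3 and DMSO replicate 3, and AKT1 only without AAPK replicate 3. Named after their values were seen, VHL, which marks HIF for destruction, fell by 0.35 and EPAS1, encoding HIF-2α, by 0.29, while HIF1A was at -0.08 (adjusted p = 0.352) and MYC at 0.11 (adjusted p = 0.168).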

How the data were processed

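Total RNA was extracted with Trizol and labelled with biotin by in vitro transcription, per the labels' protocols. The deposited table holds log2 signal for 49395 probe sets on 6 arrays; log2 was read from the values (2.83 to 14.25), and the nearly equal quartiles show that the authors had normalised between arrays by a method not given in the sources used here, so changes are relative to the bulk of genes. Probe sets naming 1 gene in the platform table (44988) were kept, and the brightest per gene was used. Groups were compared in R 4.3.3 by limma 3.58.1 (a group term alone, moderated by eBayes, two-sided p adjusted by Benjamini-Hochberg, threshold 0.05), after tests on simulated data. All members are named, and from each other list the 3 largest rises and falls past the threshold. Members and lists were chosen with earlier results of these data known. The number of arrays, 3 per group, limits precision. Replicate numbers did not pair the arrays. Alternatives were other normalisations, signal filters, probe set rules, variance models, the replicate block and leaving out each array.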

Additional observations from a re-analysis of the deposited data

Results flagged for a closer look

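Outside the gene fit, 9 probe sets name a member together with another gene. One that names RPE, the pentose epimerase, and its close copy RPEL1 was higher in AAPK, at 5.71, 5.79 and 5.73, against 5.48, 5.58 and 5.60 with DMSO (log2 change 0.19, limma adjusted p = 0.0394 over all probe sets). The reading cannot be divided between the 2 genes. It is singled out because it alone of these 9 passed the threshold, under a rule that flagged rises only.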

How the results depend on the processing

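Of 16 alternatives, each of the 9 called members kept its sign in all (144 of 144 values), and 117 of these values passed the threshold. Most settings could not turn a sign, since the groups of these 9 do not overlap and the same brightest sets were used. Only the other normalisations, the mean of probe sets and the probe set with the largest spread could turn one. Of 414 values of the other members, 17 passed. Members past the threshold numbered 9, and 14 (11 higher) with an intensity trend; leaving out 1 array gave 5 to 8, with 4 to 6 higher and 1 to 2 lower. The mean of probe sets, and the probe set with the largest spread, gave 1 lower. The citrate cycle median was -4.87e-05 with quantile normalisation, 0.11 when the most variable set stood for each gene, and 0.0091 to 0.078 without 1 array. Other pathway genes past the threshold numbered 18, and 10 to 15 without 1 array. The number of genes called ran from 1921 to 3468. With the replicate block 2 of the 9 member calls were lost, PGAM1 (adjusted p = 0.0715) and MDH1 (adjusted p = 0.101); same-numbered arrays had correlations of -0.02, -0.23 and -0.05, so the numbers do not pair them. Probe signal over background is not in the table, which limits what can be said of dim genes.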
